A study of Homo sapiens with 9 samples.

Results

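The N-glycan pathway was followed across its steps through 41 genes, chosen by name for their place in the assembly, transfer and folding control of N-linked sugars, in human colorectal cancer cells transfected with klotho vectors. Of the 41 genes, 37 had a probe set naming them alone, among 17958 genes measured in this way, and the brightest such probe set stood for each. ALG1, ALG11 and RPN2 were named only by probe sets that also name other genes, and PMM2 by no probe set used here, so these 4 are not analysed here. No filter on low values was applied, so all 37 entered the fit.

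N-linked glycosylation attaches a preassembled sugar tree to asparagines of proteins entering the endoplasmic reticulum (ER). The tree is built on the lipid dolichol, first on the cytosolic and then on the luminal face of the ER membrane, and the oligosaccharyltransferase moves it to the nascent chain. Glucosidases then trim it, the lectin chaperones calnexin and calreticulin hold the protein until it is folded, and mannosidases and Golgi transferases shape the mature glycan.

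The cells were HCT 116, an epithelial line from a human colorectal carcinoma, and RNA was taken 24 hours after transient transfection. The KL-FL group received a vector for full-length klotho of the mouse, a membrane protein that serves as a co-receptor for the hormone FGF23, the KL1 group received a vector for its KL1 subdomain alone, and the control group received pcDNA3 without an insert. There were 9 arrays, 3 for each vector, and this number limits the precision of every value. All groups were transfected with either JetPEI or polyethylenimine, the labels not saying which array had which, and neither the share of cells that took up a plasmid nor whether replicates were separate cultures is given. The p-values therefore reflect how far these particular arrays vary, and part of that variation may be technical. The values are deposited log2 expression values, and without a detection call a dim probe set cannot be told from an absent transcript. In whole cultures, fewer cells with a difference and a smaller difference per cell cannot be told apart. The study's title refers to the unfolded protein response, an ER stress program that enlarges the folding machinery, to which parts of this pathway are known to belong.

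Array medians over all genes lay between 5.38 and 5.42. KL-FL replicate 3 had the lowest median correlation with the other arrays, 0.9970, and KL1 replicate 2 the next, 0.9979, against 0.9986 to 0.9989 for the remaining 7. Of the 11 epithelial markers measured, 10 lay above the median gene of the table, against 1 of 9 leukocyte markers and 1 of 10 fibroblast and endothelial markers. The epithelial markers averaged 8.17 to 8.39 on the KL-FL arrays, 8.28 to 8.35 on the KL1 arrays and 8.31 to 8.35 on the control arrays. The probe set of human KL, the klotho gene, averaged 3.19 ± 0.046 with KL-FL, 3.19 ± 0.067 with KL1 and 3.05 ± 0.014 in control (SD, n = 3 each), and it checks the labels weakly because the vectors carried mouse sequence. The gene past the threshold in each comparison with control was DDIT3, an ER stress-induced transcription factor outside the pathway, at 7.33 ± 0.13 with KL-FL, 7.47 ± 0.011 with KL1 and 6.68 ± 0.034 in control (SD, n = 3 each). It differed by 0.65 (SE 0.059, adjusted p = 0.0348) with KL-FL and 0.78 (SE 0.059, adjusted p = 0.00687) with KL1 in limma. With same-numbered arrays as blocks in limma, 0 genes passed in either comparison.

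Of the pathway genes, 3 carry the ER stress response element in the window from 250 bases before to 50 bases after the transcription start, and these windows are shown because the element is the one through which ATF6 is known to act in the unfolded protein response. The element was searched on both strands as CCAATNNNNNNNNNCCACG and is written in capitals below, on the strand of the gene. The sequences are RefSeq's for build GRCh38.p14, with ALG12 at chr22:49918389-49918688 on the minus strand, CALR at chr19:12938359-12938658 on the plus strand and CANX at chr5:179698679-179698978 on the plus strand.
ALG12: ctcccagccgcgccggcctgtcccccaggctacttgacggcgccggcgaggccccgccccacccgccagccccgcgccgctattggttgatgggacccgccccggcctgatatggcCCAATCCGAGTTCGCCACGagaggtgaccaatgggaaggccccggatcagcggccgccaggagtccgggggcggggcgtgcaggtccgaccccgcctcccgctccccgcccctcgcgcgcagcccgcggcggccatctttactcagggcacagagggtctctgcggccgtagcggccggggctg
CALR: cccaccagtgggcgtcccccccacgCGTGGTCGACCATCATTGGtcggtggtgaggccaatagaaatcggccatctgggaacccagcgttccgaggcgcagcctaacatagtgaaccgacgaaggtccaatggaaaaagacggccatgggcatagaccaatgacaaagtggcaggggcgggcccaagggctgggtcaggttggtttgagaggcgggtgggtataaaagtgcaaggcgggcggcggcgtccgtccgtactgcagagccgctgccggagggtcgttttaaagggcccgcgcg
CANX: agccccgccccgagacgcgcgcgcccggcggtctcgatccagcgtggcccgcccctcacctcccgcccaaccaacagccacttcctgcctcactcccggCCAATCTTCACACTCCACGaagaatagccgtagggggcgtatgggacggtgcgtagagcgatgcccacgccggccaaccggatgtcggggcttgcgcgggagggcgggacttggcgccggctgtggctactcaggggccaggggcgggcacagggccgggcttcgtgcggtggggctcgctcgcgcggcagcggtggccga

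Counted from the start, the element spans positions -134 to -116 in ALG12 and -151 to -133 in CANX, and -225 to -207 on the opposite strand in CALR. Windows were found for 36 of the 41 genes, so the 3 make up 8.33%. The element stood in 22 of 27305 windows, 0.0806%, in the whole table, and in 16 of 13864 windows of measured genes, 0.115%. Its 3′ portion, CCACG, which overlaps the full element, stood in 22 of the 36 windows, 61.1%. That portion stood in 37.9% of all windows and in 44.6% of those of measured genes. The core TGACGTG of the unfolded protein response element, bound by XBP1, stood in the window of 1 pathway gene, MGAT1, or 2.78%. The shares were 2% of all windows and 2.16% of those of measured genes. A match describes letters only, and its absence says nothing beyond this window.

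With full-length klotho, 0 of the 37 pathway genes passed the test against control. Of the 37, 21 lay higher and 16 lower, with log2 differences from -0.19 for MGAT2 to 0.17 for GMPPB. Their median difference was 0.0073, beside 0.0099 over all genes, and 19 lay higher and 18 lower with arrays centred on their medians. The lectin chaperones CALR and CANX and the mannosyltransferase ALG12, the genes with the element above, differed by 0.080, 0.049 and 0.0033 on the log2 scale, and centring the arrays on their medians turns the sign of ALG12.

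The test was limma's moderated test over all genes with Benjamini-Hochberg adjustment, where 1 of 17958 genes passed, 0.00557%, and the smallest adjusted p of a pathway gene was 0.688, for PRKCSH. At an unadjusted p under 0.05 there were 2 of 37, PRKCSH and MAGT1, where 7.16% of all genes had such a p. All 3 KL-FL arrays lay above all 3 controls for 4 of the 37, STT3B, MAGT1, MAN1A1 and MAN2A1, and below them for 0, where 7.13% of all genes were non-overlapping on the higher side and 3.25% on the lower. The 95% intervals of all 37 differences, not adjusted for their number, lay within a 1.5-fold change in either direction, and 35 lay within a 1.3-fold change, with MGAT2 and MOGS as the exceptions.

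With the KL1 subdomain, again 0 of the 37 passed. Of the 37, 14 lay higher and 22 lower than control, DAD1 had equal means, and the log2 differences ran from -0.16 for DPM2 to 0.15 for DPM3, both subunits of the enzyme that makes dolichol phosphate mannose. Their median was -0.0037, beside 0.0026 over all genes, and under quantile normalization it was 0.00033, with 19 higher and 18 lower. CALR and CANX differed by 0.091 and 0.073, and ALG12 by -0.0092, or 0.0093 after quantile normalization.

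In limma 1 of 17958 genes passed, 0.00557%, and the smallest adjusted p of a pathway gene was 0.927. At an unadjusted p under 0.05 there were 2 of 37, ALG5 and MAGT1, where 5.1% of all genes had one. The groups did not overlap for MAGT1, which was higher, 1 of 37 and 0 on the lower side, where 5.13% of all genes were non-overlapping on the higher and 4.34% on the lower side. All 37 intervals lay within a 1.3-fold change in either direction.

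Between KL-FL and KL1, 0 of 37 passed in limma, as did 0 of 17958 genes, 0%, and the smallest adjusted p was 0.855. The median difference was -0.010, beside 0.0058 over all genes, with 17 genes higher in KL-FL and 20 lower. Under quantile normalization these counts were 13 and 24. At an unadjusted p under 0.05 there was 1 of 37, MAN1A1, where 5.05% of all genes had one. MAN2A1 was the 1 gene whose KL-FL arrays all lay above the KL1 arrays, and 0 lay below, where the shares over all genes were 4.67% and 2.21%. All 37 intervals lay within a 1.5-fold change here too, and 36 within a 1.3-fold change, with MGAT2 as the exception. Both comparisons with control use the same 3 control arrays, so their values are given side by side and not as 2 independent results.

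**Figure D1:**
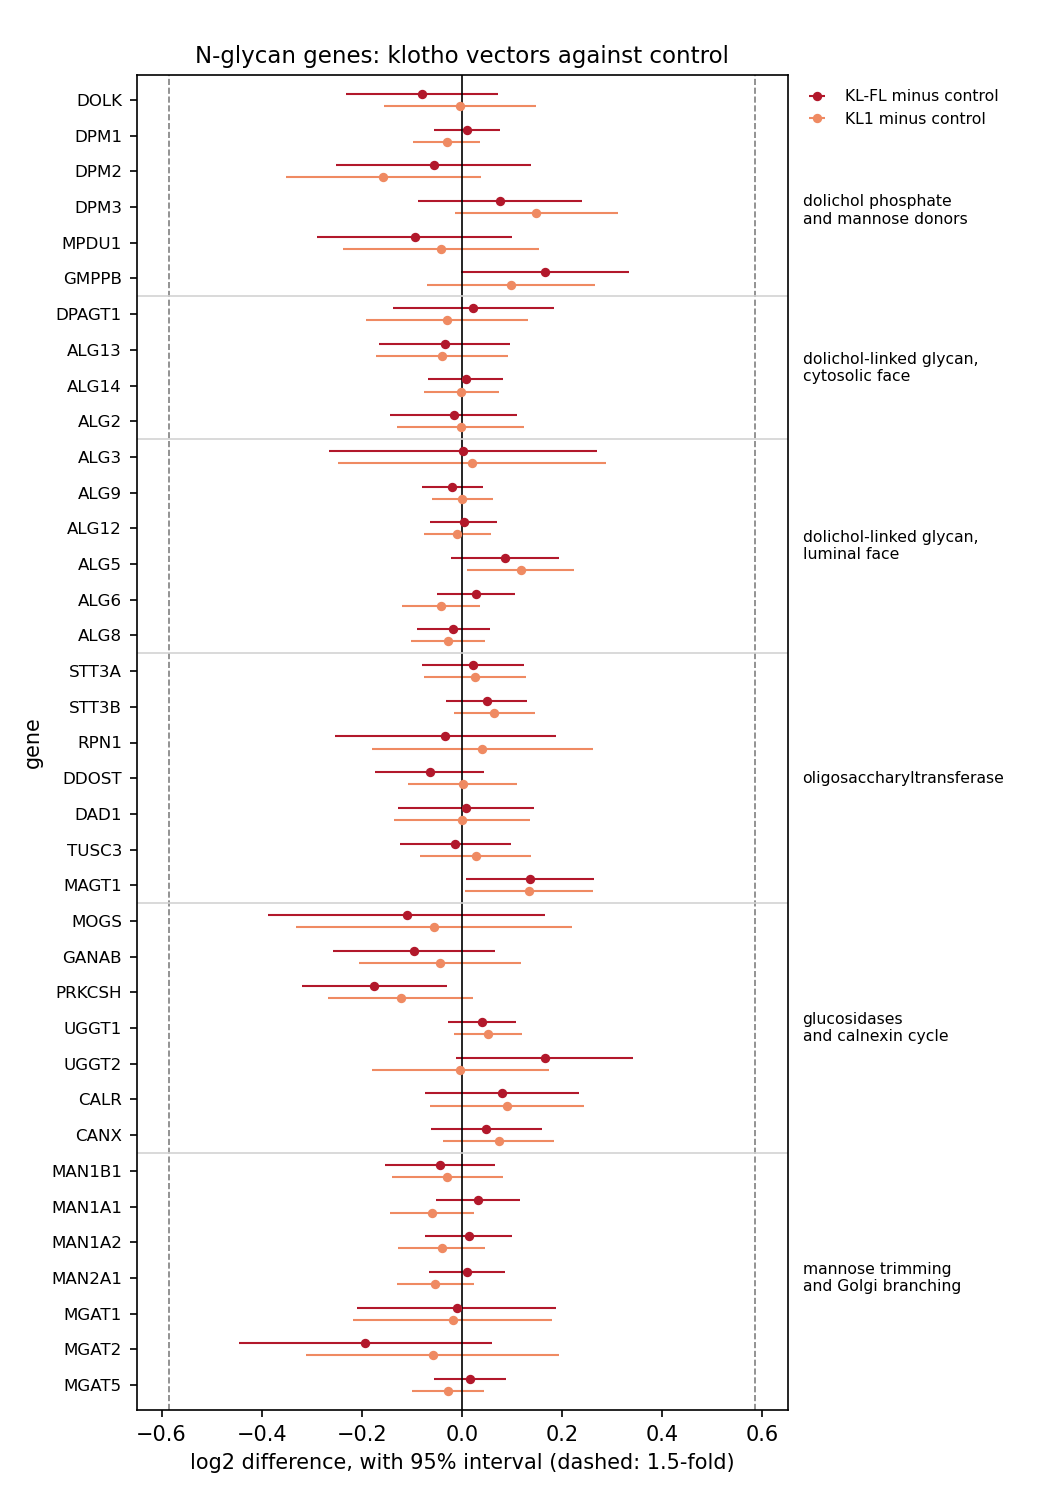
Log2 differences of the 37 pathway genes against control, by step, for KL-FL (dark red) and KL1 (orange), with 95% intervals from limma as bars and dashed lines at a 1.5-fold change. No interval reaches a dashed line, and the interval excludes 0 for MAGT1 and PRKCSH with KL-FL and for MAGT1 and ALG5 with KL1.

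**Figure D2:**
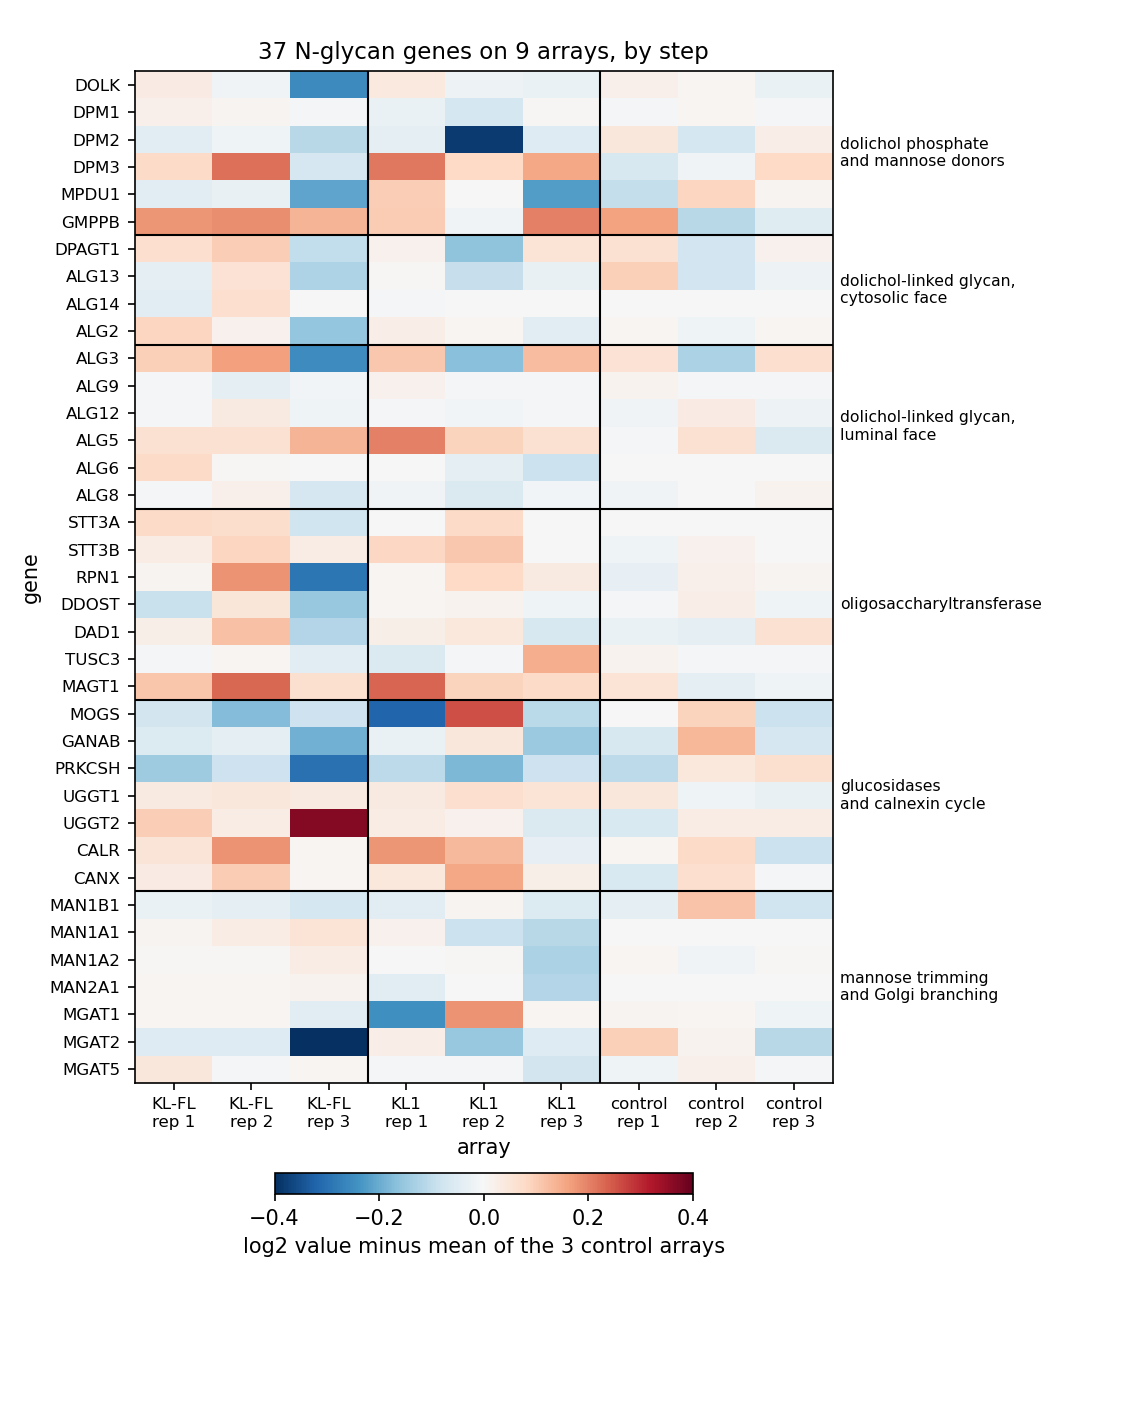
Heatmap of the log2 value of each of the 37 genes on each of the 9 arrays minus the mean of the 3 control arrays, with genes as rows by step and colours from -0.4 (blue) to 0.4 (red). KL-FL replicate 3 stands out in MGAT2, at 4.77 against a control mean of 5.24, and in UGGT2, at 7.28 against 6.91, and KL1 replicate 2 stands out in DPM2, at 5.70 against 6.09.

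The donor step supplies dolichol phosphate and activated mannose. The median difference of its 6 measured genes was -0.023 with KL-FL, 3 higher and 3 lower, and -0.017 with KL1, 2 higher and 4 lower, or 3 and 3 under quantile normalization. GMPPB, which makes GDP-mannose, read 6.07, 6.08 and 6.03 with KL-FL, 5.998, 5.88 and 6.10 with KL1, and 6.06, 5.79 and 5.85 in control. The KL-FL arrays lay close together near the highest control, while the KL1 and control arrays each spread widely, and all groups overlapped. GMPPB differed by 0.17 (SE 0.074, adjusted p = 0.695) with KL-FL and 0.097 (SE 0.074, adjusted p = 0.929) with KL1. Leaving out 1 array moved its first difference to between 0.11 (omitting control replicate 2) and 0.25 (omitting control replicate 1), and its second to between 0.042 (omitting control replicate 2) and 0.18 (omitting control replicate 1).

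DPM3, the small subunit that anchors the catalytic DPM1 in the membrane, read 6.90, 7.05 and 6.76 with KL-FL, 7.04, 6.90 and 6.98 with KL1, and 6.76, 6.81 and 6.90 in control. KL1 replicate 1 and KL-FL replicate 2 were the highest arrays, and KL-FL replicate 3 was level with the lowest control. No KL1 array lay below the highest control, with which KL1 replicate 2 shared a value to every deposited digit. The differences were 0.076 (SE 0.072, adjusted p = 0.788) with KL-FL and 0.15 (SE 0.072, adjusted p = 0.927) with KL1, and the first ran between 0.0042 (omitting KL-FL replicate 2) and 0.15 (omitting KL-FL replicate 3). The second ran between 0.12 (omitting control replicate 1) and 0.19 (omitting control replicate 3). DPM2, the regulatory subunit, read 6.05, 6.07 and 5.98 with KL-FL, 6.05, 5.70 and 6.04 with KL1, and 6.13, 6.02 and 6.11 in control, so that KL1 replicate 2 stood alone below the other 8 arrays. Its difference with KL1 was -0.16 (SE 0.086, adjusted p = 0.927), and -0.044 without that array. With KL-FL it was -0.056 (SE 0.086, adjusted p = 0.876), and -0.030 without KL-FL replicate 3.

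DOLK, the kinase that makes dolichol phosphate, read 5.60, 5.56 and 5.32 with KL-FL, 5.61, 5.55 and 5.54 with KL1, and 5.59, 5.58 and 5.55 in control, with KL-FL replicate 3 alone below the rest. It differed by -0.079 (SE 0.067, adjusted p = 0.777) with KL-FL, and by 0.0087 without that array, and by -0.0037 with KL1, or 0.00033 after quantile normalization. The catalytic subunit DPM1 stayed between 9.65 and 9.75 on all 9 arrays. MPDU1, needed for the use of dolichol-linked mannose and glucose, ran from 8.24 to 8.56, with overlapping groups.

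On the cytosolic face, DPAGT1 starts the tree, ALG13 and ALG14 add the next N-acetylglucosamine, and ALG2 adds mannoses. The median of these 4 genes was -0.0046 with KL-FL, 2 higher and 2 lower, and -0.016 with KL1, 4 lower, or 2 higher and 2 lower under quantile normalization. DPAGT1, the target of the ER stressor tunicamycin, read 8.33, 8.36 and 8.16 with KL-FL, 8.28, 8.10 and 8.31 with KL1, and 8.32, 8.18 and 8.27 in control. KL-FL replicate 3, KL1 replicate 2 and control replicate 2 were the lowest of their groups, by more than the group means differed. The differences were 0.023 (SE 0.071, adjusted p = 0.946) with KL-FL, and 0.084 without KL-FL replicate 3, and -0.030 (SE 0.071, adjusted p = 0.972) with KL1, a sign that turned to 0.035 without KL1 replicate 2.

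ALG13, the catalytic member of its transferase, read 6.95, 7.05 and 6.87 with KL-FL, 6.998, 6.90 and 6.96 with KL1, and 7.09, 6.92 and 6.97 in control, and control replicate 1 was the highest array. It differed by -0.035 (SE 0.058, adjusted p = 0.891) with KL-FL and -0.039 (SE 0.058, adjusted p = 0.955) with KL1, and its dimmer second probe set gave 0.12 and 0.00055, so that the KL-FL sign is not the same at both. Without KL-FL replicate 3 the ALG13 difference was 0.0092. ALG14, its membrane anchor, differed by 0.0073 and -0.0010, and ALG2 by -0.017 and -0.0027.

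On the luminal face, ALG3, ALG9 and ALG12 add mannose and ALG6 and ALG8 add glucose, which ALG5 loads onto dolichol phosphate. The median of the 6 genes was 0.0028 with KL-FL, 4 higher and 2 lower, and -0.0043 with KL1, 3 higher and 3 lower; centring the arrays turns the first sign, and quantile normalization the second. ALG5 read 6.43, 6.43 and 6.50 with KL-FL, 6.57, 6.46 and 6.43 with KL1, and 6.36, 6.43 and 6.31 in control. No klotho array lay below the highest control, with which 3 of them shared a value to every deposited digit, and KL1 replicate 1 was the highest. ALG5 differed by 0.085 (SE 0.047, adjusted p = 0.712) with KL-FL and 0.12 (SE 0.047, adjusted p = 0.927) with KL1, with 95% intervals of -0.022 to 0.19 and 0.0094 to 0.22. The second was 0.075 without KL1 replicate 1.

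ALG6, which adds the first glucose, read 5.29, 5.22 and 5.21 with KL-FL, 5.21, 5.18 and 5.13 with KL1, and 5.21, 5.21 and 5.21 in control, with the 3 controls identical to every deposited digit. It differed by 0.028 (SE 0.034, adjusted p = 0.841) with KL-FL and -0.042 (SE 0.034, adjusted p = 0.929) with KL1, and between KL-FL and KL1 by 0.069 (SE 0.034, adjusted p = 0.855). ALG12, which holds the element shown above, stayed between 6.49 and 6.55 on all 9 arrays. ALG3, which adds the first luminal mannose, read 9.22, 9.29 and 8.87 with KL-FL, 9.23, 8.96 and 9.25 with KL1, and 9.18, 9.00 and 9.19 in control, and each group had 1 array well below the other 2. Its KL-FL difference was 0.0023, ranging with 1 array left out between -0.079 (omitting KL-FL replicate 2) and 0.13 (omitting KL-FL replicate 3), while ALG9 differed by -0.020 with KL-FL and 0.00059 with KL1, and ALG8 by -0.017 and -0.028.

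The oligosaccharyltransferase moves the finished tree onto protein, with STT3A working on chains during translocation and STT3B, helped by MAGT1 or TUSC3, on sites that were skipped. The 7 measured subunits had a median of 0.0079 with KL-FL, 4 higher and 3 lower, and 0.027 with KL1, 6 higher, 0 lower and DAD1 equal, or 5 higher and 2 lower with arrays centred on their medians. That KL1 median is the value of TUSC3, a dim probe set. Leaving out 1 array turned the KL1 signs of TUSC3 (-0.032 to 0.069) and DDOST (-0.0076 to 0.015). MAGT1, the oxidoreductase subunit, read 7.48, 7.59 and 7.43 with KL-FL, 7.60, 7.46 and 7.44 with KL1, and 7.42, 7.33 and 7.35 in control. All 6 klotho arrays lay above all 3 controls, the nearest being KL-FL replicate 3 and control replicate 1. MAGT1 differed by 0.13 (SE 0.056, adjusted p = 0.689) with KL-FL and 0.13 (SE 0.056, adjusted p = 0.927) with KL1, with 95% intervals of 0.0071 to 0.26 and 0.0054 to 0.26, and between KL-FL and KL1 by 0.0016 with an interval of -0.13 to 0.13. Over the 9 arrays left out in turn, the MAGT1 differences stayed between 0.088 and 0.17 with KL-FL and between 0.083 and 0.16 with KL1. Its second probe set, at a mean of 2.48 near the low end of the table, gave -0.020 and -0.030, the other sign.

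STT3B, the catalytic subunit that MAGT1 serves, read 9.57, 9.63 and 9.57 with KL-FL, 9.62, 9.65 and 9.54 with KL1, and 9.52, 9.56 and 9.54 in control. The KL-FL arrays lay above every control and the KL1 arrays overlapped them. STT3B differed by 0.049 (SE 0.036, adjusted p = 0.753) and 0.065 (SE 0.036, adjusted p = 0.927), with intervals of -0.032 to 0.13 and -0.016 to 0.15. Without KL-FL replicate 2 the first was 0.030. STT3A, its cotranslational counterpart, differed by 0.022 with KL-FL and 0.026 with KL1.

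Of the shared subunits, RPN1 read 9.00, 9.17 and 8.70 with KL-FL, 9.00, 9.07 and 9.03 with KL1, and 8.96, 9.01 and 9.00 in control, a range set by KL-FL replicate 2 at the top and replicate 3 at the bottom. Its KL-FL difference was -0.033, ranging with 1 array left out between -0.14 (omitting KL-FL replicate 2) and 0.095 (omitting KL-FL replicate 3), with an interval of -0.25 to 0.19 over all arrays. DDOST differed by -0.065 and 0.0016 and DAD1 by 0.0079 and 0. TUSC3, the alternative to MAGT1, read from 2.92 to 3.12, near the lowest value of the table, 1.79.

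The glucosidases and the calnexin cycle form the folding checkpoint, in which glucosidase II removes glucose and UGGT1 puts it back on a misfolded protein. The 7 genes had a median of 0.040 with KL-FL, 4 higher and 3 lower, and -0.0034 with KL1, 3 higher and 4 lower, or 4 higher and 3 lower under quantile normalization. With KL-FL the 3 glucosidase genes lay below control and the 4 lectins and sensors above it. With KL1 the glucosidase genes and UGGT2 lay below control and UGGT1, CALR and CANX above it. This split was noticed in the values and has no test.

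PRKCSH, the regulatory subunit of glucosidase II, read 9.77, 9.82 and 9.61 with KL-FL, 9.80, 9.73 and 9.83 with KL1, and 9.80, 9.95 and 9.97 in control. Control replicates 2 and 3 lay above the other 7 arrays, KL-FL replicate 3 was the lowest, and control replicate 1 lay among the klotho arrays. It differed by -0.17 (SE 0.064, adjusted p = 0.688) with KL-FL, an interval of -0.32 to -0.029, and by -0.12 (SE 0.064, adjusted p = 0.927) with KL1, an interval of -0.27 to 0.023. Without KL-FL replicate 3 the first was -0.11. The catalytic subunit GANAB differed by -0.095 and -0.044, with overlapping groups.

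MOGS, glucosidase I, which removes the outermost glucose, read 6.44, 6.34 and 6.43 with KL-FL, 6.20, 6.77 and 6.41 with KL1, and 6.51, 6.604 and 6.43 in control. The lowest and the highest of the 9 arrays were both KL1 arrays, and the MOGS differences of -0.11 and -0.056 had intervals of -0.39 to 0.17 and -0.33 to 0.22, the widest of the 37 genes. With 1 array left out the KL1 difference of MOGS ranged between -0.21 (omitting KL1 replicate 2) and 0.074 (omitting KL1 replicate 1). UGGT1, the folding sensor, read 8.36, 8.37 and 8.36 with KL-FL, 8.36, 8.39 and 8.38 with KL1, and 8.37, 8.31 and 8.29 in control, with control replicate 1 at the height of the klotho arrays. It differed by 0.040 (SE 0.030, adjusted p = 0.757) and 0.052 (SE 0.030, adjusted p = 0.927), and the first was 0.025 without control replicate 3. Its paralog UGGT2 read 7.01, 6.94 and 7.28 with KL-FL, 6.94, 6.93 and 6.86 with KL1, and 6.85, 6.94 and 6.94 in control, so that KL-FL replicate 3 stood above all other arrays. UGGT2 differed by 0.17 (SE 0.078, adjusted p = 0.7) with KL-FL, and 0.065 without that array, by -0.0034 with KL1, or 0.014 after quantile normalization, and by 0.17 (SE 0.078, adjusted p = 0.855) between KL-FL and KL1.

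CALR, the soluble lectin chaperone calreticulin, read 9.07, 9.20 and 9.03 with KL-FL, 9.19, 9.15 and 8.99 with KL1, and 9.03, 9.09 and 8.93 in control. Control replicate 2 lay within the klotho arrays, and KL1 replicate 3 and control replicate 3 were the lowest. It differed by 0.080 (SE 0.068, adjusted p = 0.778) and 0.091 (SE 0.068, adjusted p = 0.929), with intervals of -0.074 to 0.23 and -0.063 to 0.24. With 1 array left out these differences ranged between 0.030 (omitting KL-FL replicate 2) and 0.12 (omitting control replicate 2), and between 0.048 (omitting control replicate 3) and 0.15 (omitting KL1 replicate 3). CANX, its membrane-bound counterpart calnexin, read 10.71, 10.78 and 10.69 with KL-FL, 10.72, 10.83 and 10.70 with KL1, and 10.61, 10.75 and 10.67 in control, again with control replicate 2 above part of the klotho arrays. CANX differed by 0.049 (SE 0.049, adjusted p = 0.795) and 0.073 (SE 0.049, adjusted p = 0.927), with intervals of -0.062 to 0.16 and -0.037 to 0.18. Those of CANX ranged between 0.017 (omitting control replicate 1) and 0.083 (omitting control replicate 2), and between 0.033 (omitting KL1 replicate 2) and 0.11 (omitting control replicate 2). CALR and CANX are named here for the element in their windows, outside the rule for named genes.

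**Figure D3:**
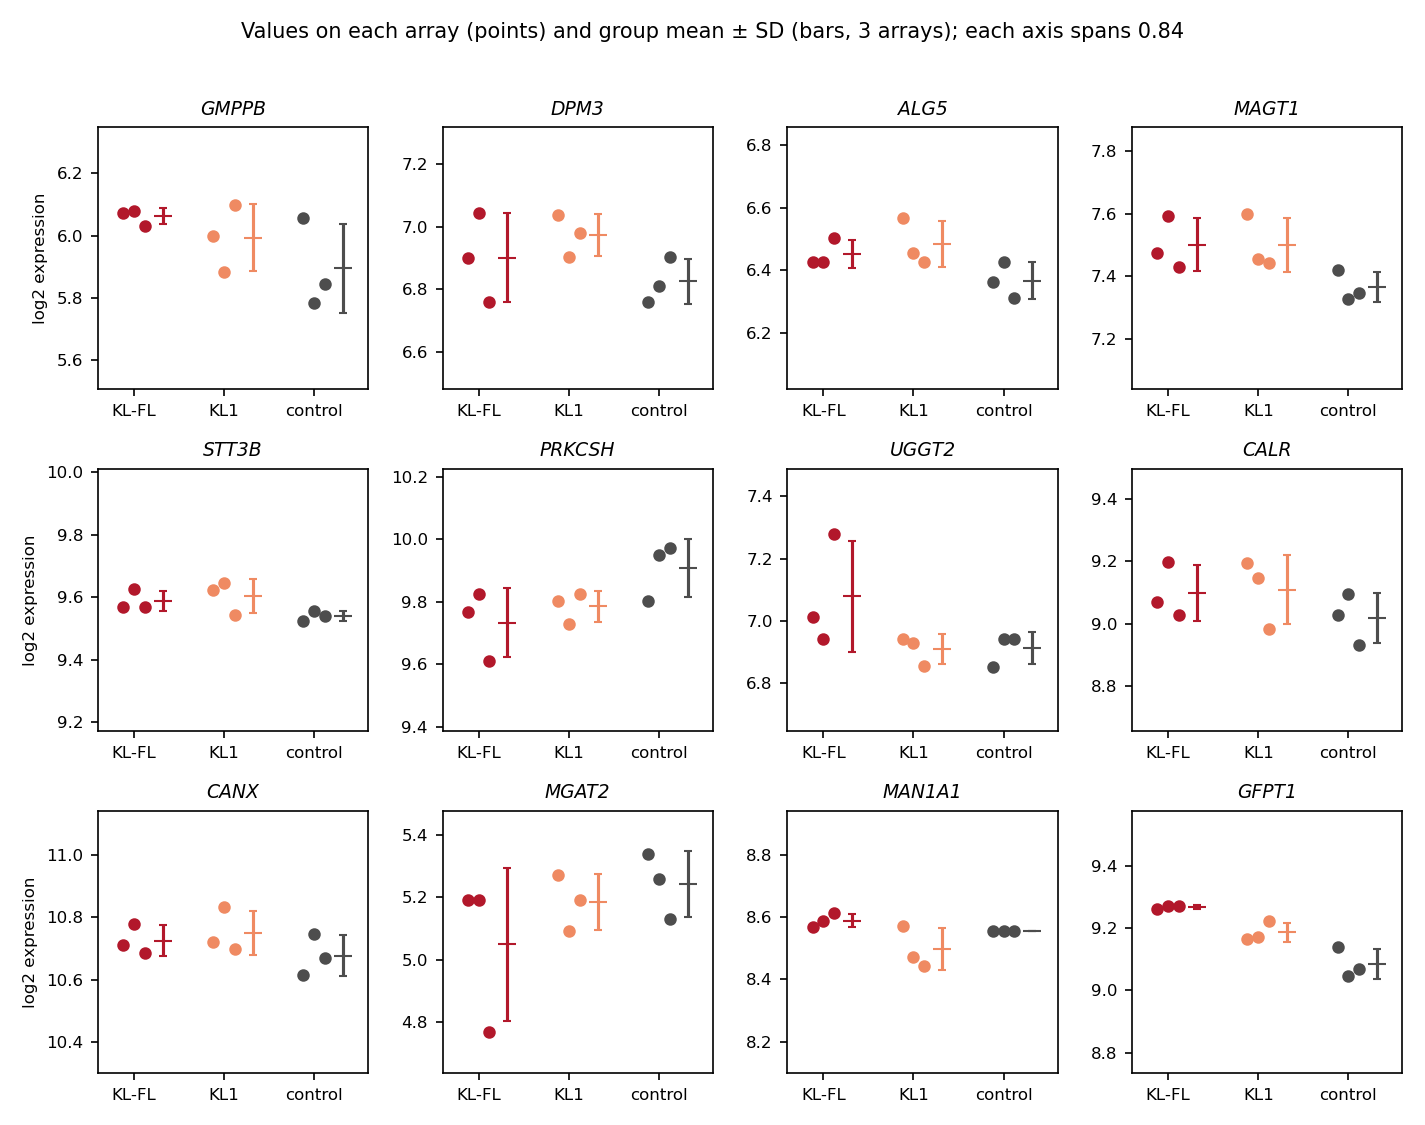
Log2 expression on each array (points) with the group mean and SD (bars, n = 3) for 11 pathway genes and GFPT1, in KL-FL, KL1 and control. Each vertical axis spans the same log2 range around its gene; MAGT1 and GFPT1 have all 6 klotho arrays above the controls, while in the other panels at least 1 klotho group overlaps control.

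In the last step, MAN1B1 of the ER and MAN1A1 and MAN1A2 of the Golgi trim mannose, MGAT1 starts the first branch, MAN2A1 trims again, and MGAT2 and MGAT5 add further branches. The 7 genes had a median of 0.0099 with KL-FL, 4 higher and 3 lower, and -0.040 with KL1, 7 lower. That count was the same under quantile normalization and with arrays centred on their medians, but it rested in part on single arrays. The Golgi list's median shift from the control mean was 0.0069, 0.0058 and 0.0086 on the KL-FL arrays, -0.0056, 0 and -0.074 on the KL1 arrays and 0, 0.0069 and -0.0056 on the control arrays, and its KL1 median was -0.022 without KL1 replicate 3. Without KL1 replicate 1 the MGAT1 difference turned to 0.094, and without KL1 replicate 3 that of MAN1A2 turned to 0.0019. The KL1 differences were small, from -0.060 to -0.019, and for 0 of the 7 did the KL1 arrays all lie below the controls.

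MAN1A1 read 8.57, 8.59 and 8.61 with KL-FL, 8.57, 8.47 and 8.44 with KL1, and 8.56, 8.56 and 8.56 in control, with the 3 controls identical to every deposited digit. The KL-FL arrays lay above that value and KL1 replicates 2 and 3 below it. MAN1A1 differed by 0.032 (SE 0.037, adjusted p = 0.822) with KL-FL, -0.060 (SE 0.037, adjusted p = 0.927) with KL1, and 0.093 (SE 0.037, adjusted p = 0.855) between KL-FL and KL1, with an interval of 0.0086 to 0.18 for the last. MAN2A1 read 7.15, 7.15 and 7.16 with KL-FL, 7.10, 7.14 and 7.03 with KL1, and 7.14, 7.14 and 7.14 in control, the controls again identical, and differed by 0.0099 (SE 0.034, adjusted p = 0.951) and -0.054 (SE 0.034, adjusted p = 0.927). The non-overlap of KL-FL and control in MAN2A1 thus rests on a log2 difference of 0.0099 from controls with no spread.

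MGAT2, which opens the second branch, read 5.19, 5.19 and 4.77 with KL-FL, 5.27, 5.09 and 5.19 with KL1, and 5.34, 5.26 and 5.13 in control. KL-FL replicate 3 was the lowest array by a wide margin, and replicates 1 and 2 lay within the controls. It differed by -0.19 (SE 0.11, adjusted p = 0.712) with KL-FL, and -0.052 without that array, and by -0.059 (SE 0.11, adjusted p = 0.962) with KL1. MAN1B1 differed by -0.044 (SE 0.049, adjusted p = 0.817) and -0.030 (SE 0.049, adjusted p = 0.958), signs that turn without control replicate 2, to 0.013 and 0.027. MAN1A2, MGAT1 and MGAT5, the last of which makes the beta-1,6 branch found on many carcinoma glycoproteins, differed by 0.013, -0.011 and 0.016 with KL-FL and by -0.040, -0.019 and -0.028 with KL1.

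Several of the differences above rest on single arrays. KL-FL replicate 3 was the lowest of the 9 arrays for 13 of the 37 genes, 35.1%, beside 23.9% of all genes, and KL-FL replicate 2 was the highest for 10 of 37, 27%, beside 21.2% of all genes. Over the oligosaccharyltransferase genes the median shift from the control mean was 0.023, 0.087 and -0.079 on the KL-FL arrays, 0.0080, 0.076 and 0.0028 on the KL1 arrays and -0.0077, 0.00013 and 0.00033 on the control arrays. Over the glucosidases and calnexin cycle genes it was 0.034, 0.030 and 0.0091 on the KL-FL arrays, 0.030, 0.066 and -0.057 on the KL1 arrays and -0.059, 0.069 and -0.029 on the control arrays. In the first, KL-FL replicates 2 and 3 lay on opposite sides of every control, and in the second the controls spanned the klotho arrays. Without KL-FL replicate 3, 28 of the 37 genes lay above control and 9 below, with a median of 0.016 beside 0.018 over all genes, where 64.1% of all genes lay above. In that fit 0 of the 37 passed in limma, and 2 had an unadjusted p under 0.05, DPM3 and MAGT1, where 8.24% of all genes did. What sets that array apart was not tested.

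**Figure D4:**
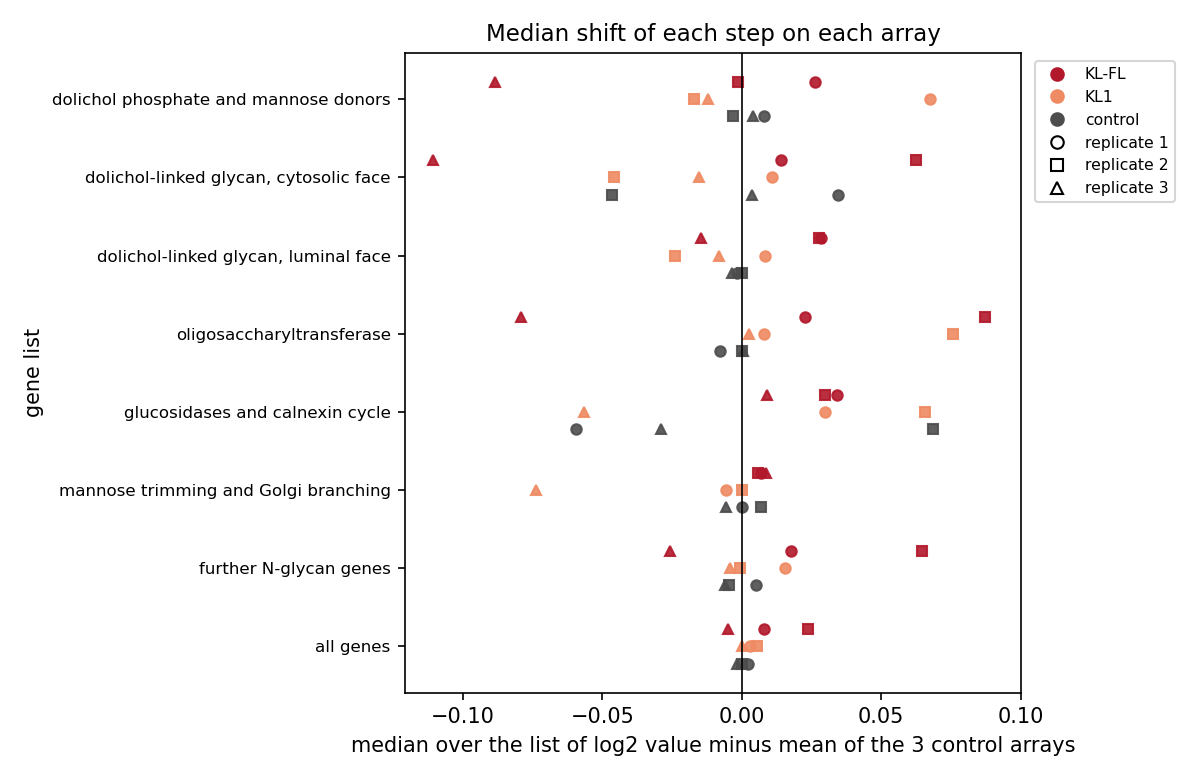
Median over each step's genes of the log2 value minus the control mean, for each array, with colour for the group and marker shape for the replicate, and the same for 27 further N-glycan genes and for all genes. In the oligosaccharyltransferase row KL-FL replicate 3 lies at -0.079 and replicate 2 at 0.087, on either side of the controls.

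Identical values recurred across arrays. For 16 of the 37 genes, 43.2%, at least 3 arrays shared 1 value to every deposited digit, beside 44.1% of all genes, and for 3 of them, ALG6, MAN1A1 and MAN2A1, the 3 controls were identical. What made the values identical was not tested, and an SD over identical values may not show the spread between cultures. The pooled SD within groups had a median of 0.075 over the 37 genes, from 0.015 to 0.18, beside a median of 0.061 over all genes.

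A list of 34 further N-glycan genes, with donor synthesis, accessory subunits, lectins and later transferases, had 27 measured members, and its signs with KL1 and between KL-FL and KL1 turn under quantile normalization. With KL-FL 0 passed in limma, 16 lay higher and 11 lower, and the median was 0.038; with KL1 0 passed, 13 lay higher and 14 lower, and the median was -0.0060. At an unadjusted p under 0.05 there were 3 of 27 with KL-FL, GFPT1, UAP1 and PMM1, where 7.16% of all genes had one, and 3 of 27 with KL1, GFPT1, MGAT4B and PDIA3, where 5.1% had one. Between KL-FL and KL1 there were 2 of 27, beside 5.05% of all genes.

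GFPT1, the rate-limiting enzyme of the hexosamine pathway that supplies N-acetylglucosamine, read 9.26, 9.27 and 9.27 with KL-FL, 9.16, 9.17 and 9.22 with KL1, and 9.14, 9.05 and 9.07 in control. All KL-FL arrays lay above all KL1 arrays, and these above all controls. It differed by 0.18 (SE 0.033, adjusted p = 0.491) with KL-FL, 0.10 (SE 0.033, adjusted p = 0.927) with KL1 and 0.082 (SE 0.033, adjusted p = 0.855) between KL-FL and KL1, and none of these passed. With array weights in limma the first had adjusted p = 0.0247, in a fit where 523 of all genes passed and the weights were 6.76, 0.554 and 0.265 for KL-FL replicates 1, 2 and 3, so that it leans on 1 KL-FL array. UAP1, which completes UDP-N-acetylglucosamine, differed by 0.089 (SE 0.036, adjusted p = 0.688) with KL-FL and 0.045 (SE 0.036, adjusted p = 0.929) with KL1, the second being 0.021 without KL1 replicate 2.

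PDIA3, the oxidoreductase that works with CALR and CANX, read 9.23, 9.24 and 9.03 with KL-FL, 9.23, 9.28 and 9.24 with KL1, and 9.10, 9.15 and 9.11 in control. Its KL1 arrays lay above every control, and 1 of the KL-FL arrays lay below them. PDIA3 differed by 0.045 (SE 0.055, adjusted p = 0.838) and 0.13 (SE 0.055, adjusted p = 0.927), and with 1 array left out the first ranged between 0.0067 (omitting KL-FL replicate 2) and 0.11 (omitting KL-FL replicate 3). PMM1, a phosphomannomutase, differed by -0.085 (SE 0.035, adjusted p = 0.688) with KL-FL and -0.0060 with KL1, and the branching enzyme MGAT4B by -0.093 (SE 0.047, adjusted p = 0.702) and -0.11 (SE 0.047, adjusted p = 0.927), the first being -0.057 without KL-FL replicate 3.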

How the data were processed

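Per the labels' protocols, 100 ng of total RNA was prepared with Affymetrix whole-transcript chemistry. The values used are log2 expression values of 33297 probe sets, deposited by the authors for 9 arrays; the submitters' processing notes name Partek 6.6. How they corrected, normalized and summarised the probes is not given in the sources used here. That the scale is log2 was inferred from the range, 1.79 to 12.4. A table of the platform's annotation named 1 gene for 19181 probe sets. The probe set with the highest mean over 9 arrays stood for its gene, giving 17958 genes. ALG13 and MAGT1 have another probe set.

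limma 3.58.1 in R 4.3.3 fitted 3 group means to the 9 arrays, without covariates and with 6 residual degrees of freedom. The p-values are two-sided and adjusted by Benjamini-Hochberg over the whole table, and 0.05 was the threshold. The fit was also run on simulated data as a check of the code, and no result here rests on that run. Intervals are 95% moderated intervals of single genes. Differences are the first-named group minus the other. The limits of 1.5-fold and 1.3-fold were chosen after values were seen. Tests are given for the 2 genes of each step with the smallest p in each comparison with control, the 3 with the smallest p between KL-FL and KL1, and the 3 further genes with the smallest p per comparison with control; ALG12, CALR, CANX and others were added after values were seen. The members, lists and alternatives were chosen with earlier results of these data known. Deviations of same-numbered arrays correlated at 0.113 to 0.322 between KL1 and control, and at -0.0955 to 0.0974 in the other comparisons. The labels do not say what a number shares. The numbers enter only the replicate block and the same-numbered comparisons of CALR, CANX, HSPA5 and HSP90B1. All other tests and intervals, those of KL1 included, leave them out. Promoter windows and symbols come from RefSeq tables for GRCh38.p14. Alternatives were other normalizations, a filter on dim genes, other probe sets, variance models, array weights, a replicate block and arrays left out.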

Additional observations from a re-analysis of the deposited data

How the results depend on the processing

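The count of pathway genes past the threshold was 0 in the 3 comparisons under every alternative run, including each of the 9 arrays left out. With same-numbered arrays taken as a replicate block in limma, it was 0 in each comparison and changed no call among them, and the count over all genes was 0 with KL-FL and 0 with KL1, against 1 each without the block. All genes past the threshold numbered 523, 2 and 1 with array weights, for KL-FL, KL1 and KL-FL against KL1, 0 with every probe set tested in either comparison with control, 0 with KL-FL from only the 6 arrays compared, and 2 with KL1 when KL-FL replicate 3 and KL1 replicate 2 were left out, an alternative added after seeing the data. With single arrays left out the counts ran from 0 to 1 in either comparison with control. Array weights put 2 further N-glycan genes past the threshold with KL-FL, GFPT1 at 0.18 (adjusted p = 0.0247) and GMPPA at 0.27 (adjusted p = 0.0489). Without weights, GMPPA differed by 0.13 (SE 0.089, adjusted p = 0.743 in limma) with KL-FL, and its KL-FL and control arrays overlapped.

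The medians of lists lay near 0 and moved with few arrays. With KL-FL, the luminal median was 0.029 with array weights, and without KL-FL replicate 3 and KL1 replicate 2 it was 0.028 and the oligosaccharyltransferase median 0.070. For KL-FL against KL1, the median of all 37 was 0.014 with array weights, and without these 2 arrays it was 0.026, the luminal 0.018, the calnexin cycle 0.041 and the Golgi median 0.069. With single arrays left out, the luminal median ran over -0.011 to 0.028, the oligosaccharyltransferase median over -0.024 to 0.070 and that of the further genes over 0.0081 to 0.055 with KL-FL. The donor median ran over -0.036 to 0.012, and was 0.020 with array weights, the cytosolic over -0.028 to 0.031, and was 0.024 with array weights and 0.015 with the mean of probe sets, the calnexin cycle over 0.017 to 0.041, the Golgi over 0.0015 to 0.010 and all 37 over -0.015 to 0.016. With KL1 the ranges were -0.029 to 0.027 for the donor, -0.040 to 0.00078 for the cytosolic, -0.016 to -0.0023 for the luminal, 0.021 to 0.055 for the oligosaccharyltransferase, -0.033 to 0.048 for the calnexin cycle, -0.059 to -0.022 for the Golgi, -0.015 to 0.011 for the further genes and -0.017 to 0.0019 for all 37. For KL-FL against KL1 the ranges were -0.022 to 0.026 for the 37, -0.023 to 0.030 for the donor, -0.026 to 0.052 for the cytosolic, -0.014 to 0.030 for the luminal, -0.047 to 0.036 for the oligosaccharyltransferase, -0.052 to 0.0091 for the calnexin cycle, 0.021 to 0.077 for the Golgi and -0.014 to 0.049 for the further genes.

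Among the genes named, signs turned with KL-FL for DOLK (0.021 with array weights, 0.0087 without both arrays), ALG13 (0.044 with the mean of its probe sets, 0.0092 without both arrays) and ALG12 (-0.0038 centred on medians, -0.0075 with array weights). With KL1 they turned for DOLK (0.00033 under quantile normalization, 0.0051 without both arrays), DPAGT1 (0.0017 with array weights, 0.035 without both arrays), and, under quantile normalization, UGGT2 (0.014) and ALG12 (0.0093). Leaving out single arrays turned the sign of 14 of the 37 differences with KL-FL, 18 with KL1 and 24 between KL-FL and KL1. With KL-FL these ranges included -0.13 to 0.0087 for DOLK, -0.082 to 0.013 for ALG13, -0.015 to 0.084 for DPAGT1, -0.083 to 0.013 for MAN1B1, -0.013 to 0.020 for ALG12, -0.14 to 0.095 for RPN1 and -0.079 to 0.13 for ALG3. With KL1 they included -0.025 to 0.0085 for DOLK, -0.078 to 0.0083 for ALG13, -0.072 to 0.035 for DPAGT1, -0.033 to 0.023 for UGGT2, -0.069 to 0.027 for MAN1B1, -0.019 to 0.0079 for ALG12, -0.21 to 0.074 for MOGS, -0.12 to 0.094 for MGAT1 and -0.089 to 0.022 for GANAB, and among the further genes -0.032 to 0.014 for PMM1. The cause was not tested.

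The number of arrays limits what can be seen: the median distance from a pathway gene's difference to either end of its interval was 0.13. Signal over background is unknown, since no detection call was given, and ALG6, MGAT1, MGAT2 and TUSC3 lay below the 50th percentile of the table, which the filter leaves out.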

Other observations

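The ER stress response element shown for ALG12, CALR and CANX was also found in the windows of 13 measured genes outside the pathway list, and the values of these 13 are given as a description, since they were looked up after values were seen. With KL-FL 11 of the 13 lay above control, where 57.2% of all genes did, with a median log2 difference of 0.086, and for 4 of them all KL-FL arrays lay above all controls, where 7.13% of all genes did so. With KL1 11 lay above control, where 52% of all genes did, with a median of 0.086, and for 5 the KL1 arrays lay above all controls, where 5.13% of all genes did so. None passed in limma, the smallest adjusted p being 0.408 with KL-FL and 0.478 with KL1, and at an unadjusted p under 0.05 there were 4 and 3 of the 13, beside 7.16% and 5.1% of all genes. Both comparisons use the same control arrays.

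HSPA5, the ER chaperone BiP, read 10.94, 10.90 and 10.75 with KL-FL, 11.03, 10.85 and 10.89 with KL1, and 10.64, 10.67 and 10.61 in control. Every klotho array lay above every control, by 0.23 (SE 0.059, adjusted p = 0.583) on average with KL-FL and 0.28 (SE 0.059, adjusted p = 0.821) with KL1. HSP90B1, the ER chaperone GRP94, read 10.77, 10.78 and 10.81 with KL-FL, 10.80, 10.83 and 10.73 with KL1, and 10.59, 10.59 and 10.56 in control, again with no overlap, and differed by 0.21 (SE 0.033, adjusted p = 0.408) and 0.21 (SE 0.033, adjusted p = 0.478). The klotho groups did not overlap control either for CRELD2, an ER stress-inducible secreted protein, at 0.086 and 0.086, and TRIM5, an antiviral restriction factor, at 0.18 and 0.12. Beside these, calreticulin differed by 0.080 and 0.091 and calnexin by 0.049 and 0.073, with groups that overlapped. Between same-numbered arrays, KL1 minus control, CALR differed by 0.17, 0.054 and 0.052 and CANX by 0.11, 0.086 and 0.028. HSPA5 differed by 0.39, 0.18 and 0.28 and HSP90B1 by 0.21, 0.24 and 0.17. On each KL-FL array, CALR, CANX, HSPA5 and HSP90B1 also lay above the same-numbered control. The labels do not say that these arrays are pairs, and the genes were picked after values were seen, so these differences are description only. In limma without the block, the unadjusted p with KL1 was 0.215 for CALR and 0.167 for CANX, and with KL-FL 0.268 and 0.345. Neither CALR nor CANX passed with the replicate block.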
